A study of Homo sapiens with 4 samples.

Results

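The genes described here encode the factors that start and extend protein synthesis on the ribosome, together with the enzymes and binding proteins that carry the same gene prefix. They were taken as every gene of the count table whose symbol starts with EIF (eukaryotic initiation factor) or EEF (eukaryotic elongation factor), which gave 65 of 12912 genes. EEF1B2, EEF1D, EEF1G, EIF3K and EIF4EBP3 were not analysed here. The cells were 786-O, a human clear cell renal carcinoma line without functional VHL, the ubiquitin ligase subunit that marks hypoxia-inducible factors for degradation. 786-O-Ctrl, labelled wild type and VHL-null, was compared with 786-O-VHL, labelled VHL restoration, in which a retroviral pBabe-puro vector expressed HA-tagged wild-type VHL. Both carried the triple reporter of GFP, luciferase and thymidine kinase and were grown in RPMI1640 with serum. Each group was 1 subline with RNA taken in 2 replicates, so differences between the groups cannot be told apart from differences between the sublines, and p-values measure the spread between these libraries, which may be technical.

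Translation initiation begins when eIF2, carrying GTP and the initiator methionyl tRNA, binds the small ribosomal subunit with eIF1, eIF1A, eIF3 and eIF5, while eIF4F, made of the cap-binding protein eIF4E, the scaffold eIF4G and the helicase eIF4A, brings in the mRNA. Cells limit the process at points such as eIF2, which stress kinases phosphorylate, and eIF4E, which hypophosphorylated 4E-binding proteins hold away from eIF4G under the control of mTORC1. In renal carcinoma, mTORC1 is a drug target, the HIF2 protein that accumulates without VHL depends on translation of its mRNA, and the cap-binding protein of EIF4E2 is known to act with HIF2 in hypoxia. RNA-seq measures the mRNA of these factors and neither their phosphorylation nor their protein amount.

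Library totals were 22141263 and 15714166 counts for 786-O-Ctrl, and 2807779 and 16114120 counts for 786-O-VHL. Values are given below for the deeper and then the shallower 786-O-Ctrl library, and for replicate 1 and then replicate 2 of 786-O-VHL, as counts-per-million values (CPM) scaled by TMM factors. The shallow 786-O-VHL replicate 1 limits genes with few counts, since 3 counts there equal 1.02 CPM. The VHL gene itself stood at 42.9 and 43.9 CPM in 786-O-Ctrl and at 178 and 163 CPM in 786-O-VHL, and its log2 fold change was 1.96 ± 0.07 (SE, n = 2 per group, FDR = 2.86e-19). All 7 renal marker genes searched were listed, with summed levels of 3158 and 3143 CPM in 786-O-Ctrl but of 1960 and 1818 CPM in 786-O-VHL. Of 7 markers of blood cells, endothelium and fibroblasts, PECAM1 and LUM were listed, and together they reached 1.23 to 2.71 CPM. Of the 7 renal markers, 5 fell, CDH6 rose (log2 fold change 0.45, FDR = 1.44e-04) and KRT18 did not pass the test. Among all genes tested, 31.9% were lower and 32.6% higher. The larger part of the fall in the renal sum came from VIM, at 1668 and 1699 CPM against 751 and 709 CPM. These markers moved with the groups in both directions, and their part in the results below was not tested. In a bulk culture, fewer cells of one state and less RNA per cell cannot be told apart.

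Many translation factor mRNAs belong to the TOP class, which starts with a C followed by a run of pyrimidines and is translated under mTORC1 control. The RefSeq table (GRCh38.p14) held a start for 51 of the 65 genes. Windows of 30 bases, 8 before the annotated transcription start and 22 from it on, are shown for genes on which the results below turn. Capitals mark a C at the start with at least 4 pyrimidines after it, and a window in lower case has no such run at that base. The windows lie at chr6:73521011-73521040 on the minus strand for EEF1A1, chr19:3985442-3985471 on the minus strand for EEF2, chr11:7987329-7987358 on the plus strand for EIF3F, chr11:32583823-32583852 on the plus strand for EIF3M, chr12:53006448-53006477 on the plus strand for EIF4B, chr3:186783569-186783598 on the plus strand for EIF4A2, chr17:41688877-41688906 on the plus strand for EIF1 and chr22:31489821-31489850 on the minus strand for EIF4ENIF1, so each spans the end of the promoter and the first bases of exon 1.
EEF1A1: tgaacgttCTTTTTCgcaacgggtttgccg
EEF2: tcagcgttCTCTTCCgccgtcgtcgccgcc
EIF3F: tccgcctcCTTCTTTCTCgacaagatggcc
EIF3M: ccagttccCTTTTCCggtcggcgtggtctt
EIF4B: atccgggtCTTTTgcgttctctttccctct
EIF4A2: gccgctgtCTTTTCagtcgggcgctgagtg
EIF1: gcccctctgccccagtcactgagccgccgc
EIF4ENIF1: cgggctgcagttacggcggctgaagagaga

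Such a run was found at a start of 11 of the 51 genes (21.6%), against 5.14% of the 27305 genes of the RefSeq table. Those 27305 genes were not limited to genes with counts here, so the 2 shares do not compare like sets. Of these 11 genes, EIF4A2 rose in 786-O-VHL, EEF1A1, EIF2A, EIF3F and EIF3M fell, and EEF2, EIF2D, EIF2S3, EIF2S3B, EIF3D and EIF4B did not pass the test. Among all genes tested, 32.6% were higher and 31.9% lower at an FDR below 0.05. The median log2 fold change was -0.13 with the run and -0.25 without it. Of the genes with the run, only EIF4A2 had a fitted log2 fold change above 0. A match of letters is a description of the window and not of a start site used in these cells.

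At an FDR below 0.05, 42 of the 65 factor genes (64.6%) differed between the groups, next to 64.5% of all 12335 genes tested. The share called was thus that of the whole table, but the directions differed: 11 factor genes were higher and 31 lower, against 32.6% higher and 31.9% lower among all genes. Of the called factor genes 73.8% were lower, and of all called genes 49.5%. The median log2 fold change was -0.18 over the factor genes and 0.02 over all genes tested. This split depended on the scaling. With library totals alone in place of TMM, 18 factor genes were higher and 22 lower, so that 45% of the called factor genes were higher in place of 26.2%, and the higher share of all called genes moved from 50.5% to 62.1%. That scaling moved the median of all genes by 0.13 on the log2 scale.

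The changes were small in size. The median absolute log2 fold change was 0.35 for the factor genes and 0.43 for all genes. None of the 65 passed a 4-fold change with FDR below 0.01, a threshold that 4.46% of all genes passed. Past 2-fold and FDR below 0.05 stood EIF1, which was higher, and EIF4ENIF1, which was lower, next to 17.5% of all genes. The libraries of the groups did not overlap for 49 factor genes, next to 80% of all genes. Of these, 36 lay lower in 786-O-VHL (39.2% of all genes) and 13 higher (40.8% of all genes). Of the 14 factor genes below 20 CPM in 786-O-Ctrl 4 were called (28.6%), and of the 51 at or above it 38 (74.5%). The shares of all genes called at these levels were not computed, so the difference cannot be read as a trait of the factor genes. The factor genes together took 2.07%, 2.07%, 2.06% and 1.99% of the raw library totals, which is nearly level on that scale, without TMM factors. EEF1A1 alone made up 30.5% to 32.5% of these counts. The median log2 fold change of the factor genes was -0.18 with TMM and -0.050 with library totals alone.

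**Figure D1:**
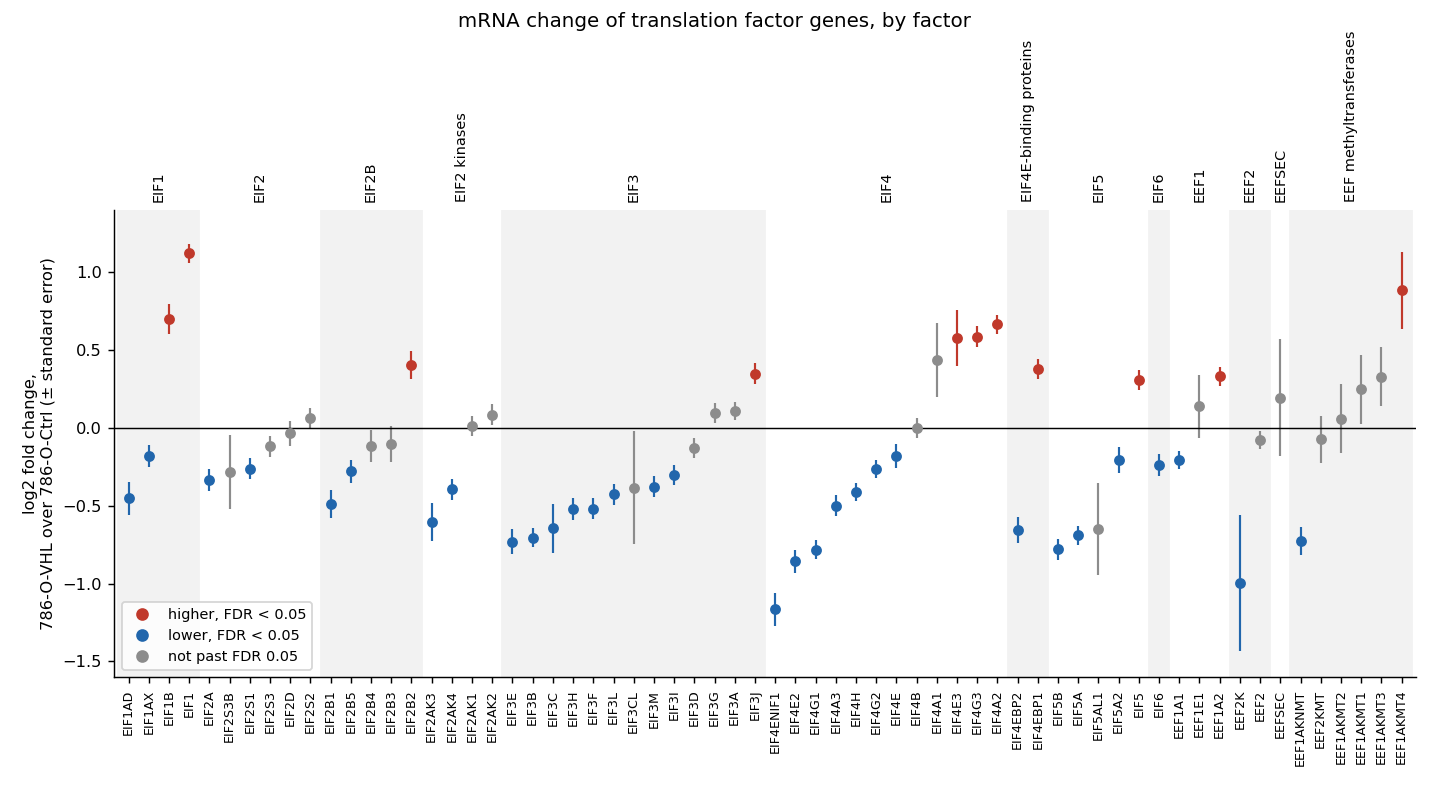
Log2 fold change of 786-O-VHL over 786-O-Ctrl (y axis) for each translation factor gene (x axis), grouped by factor; points are edgeR estimates, bars are 1 standard error, and color gives the call at FDR 0.05, with 2 libraries per group. EIF1 stands highest at 1.12 and EIF4ENIF1 lowest at -1.17. Of the 13 EIF3 genes, 8 lie lower past the test, next to 31.9% of all genes tested. The Y-linked member is not drawn.

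The eIF1 and eIF1A proteins keep the small subunit open for scanning and set how strictly a start codon is chosen. EIF1, on chromosome 17 at 39845137 to 39848920 of GRCh37, was at 461 and 481 CPM in 786-O-Ctrl and at 1004 and 1040 CPM in 786-O-VHL. Both 786-O-VHL libraries lay at over 2 times the level of either 786-O-Ctrl library. Its log2 fold change of 1.12 ± 0.06 (SE, 95% confidence interval 1.00 to 1.24, FDR = 1.95e-15) was the largest rise among the factor genes. EIF1B, which encodes a close relative of eIF1, was at 27.9 and 25.8 CPM and rose to 44.1 and 43.6 CPM, a log2 fold change of 0.70 ± 0.10 (FDR = 4.79e-07). The 2 genes for eIF1 thus rose together. EIF1AD, named for an eIF1A-like domain, was lower at 24.1 and 23.0 CPM against 32.1 and 31.6 CPM (log2 fold change -0.45, FDR = 6.12e-04). This call was lost without 786-O-VHL replicate 2 (log2 fold change -0.41) and after thinning to the shallowest library (-0.34, FDR = 0.12). EIF1AX, the eIF1A gene on the X chromosome, was at 128 and 130 CPM against 101 and 120 CPM. Its log2 fold change was -0.18 (FDR = 0.028). The call, though not the change, was lost without the deeper 786-O-Ctrl library (-0.21, FDR = 0.097) and without the shallower one (-0.19, FDR = 0.13). The change was -0.11 without 786-O-VHL replicate 1 (FDR = 0.095), -0.36 without replicate 2 and -0.046 with library totals alone (FDR = 0.58), and DESeq2 (FDR = 0.080) and thinning (FDR = 0.15) did not call it either. Its near-identical Y-linked copy can share its reads.

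The 250 bases before the annotated start are shown for EIF1 and EIF1B, which rose most in this family, and for the first start of EIF4G1, the scaffold gene of the cap complex, which fell. Capitals mark CACGTG, the palindromic E-box, and in EIF1 ACGTG, the core of the hypoxia response element, which is also part of every CACGTG. The stretches are at chr17:41688635-41688884 for EIF1, chr3:40309457-40309706 for EIF1B and chr3:184314356-184314605 for EIF4G1, on the plus strand of GRCh38.p14.
EIF1: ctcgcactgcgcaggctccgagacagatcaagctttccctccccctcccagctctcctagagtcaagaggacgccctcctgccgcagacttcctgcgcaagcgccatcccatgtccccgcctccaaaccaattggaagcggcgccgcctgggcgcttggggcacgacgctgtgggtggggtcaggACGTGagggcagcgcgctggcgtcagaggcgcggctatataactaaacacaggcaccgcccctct
EIF1B: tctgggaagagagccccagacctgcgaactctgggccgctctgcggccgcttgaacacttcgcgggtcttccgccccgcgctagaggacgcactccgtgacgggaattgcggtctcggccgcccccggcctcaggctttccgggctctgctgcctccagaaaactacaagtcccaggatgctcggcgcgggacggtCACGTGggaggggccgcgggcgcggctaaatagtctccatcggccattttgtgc
EIF4G1: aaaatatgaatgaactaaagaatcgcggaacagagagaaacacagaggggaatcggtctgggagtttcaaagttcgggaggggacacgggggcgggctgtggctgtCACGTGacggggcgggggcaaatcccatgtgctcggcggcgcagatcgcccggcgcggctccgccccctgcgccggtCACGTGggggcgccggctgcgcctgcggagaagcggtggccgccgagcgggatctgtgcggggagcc

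The first base of CACGTG lay 54 bases upstream of the start in EIF1B, and 144 and 67 bases upstream of the first start in EIF4G1. The later annotated starts of EIF4G1 had no CACGTG in the 250 bases before them. On both strands, CACGTG was found before a start of 13 of the 51 factor genes (25.5%) and of 7.73% of the 27305 RefSeq genes. ACGTG was found before 20 of the 51 (39.2%) and 21.7% of the RefSeq genes. The RefSeq genes were not limited to those with counts here, so these shares do not compare like sets. Of the 13 genes with CACGTG, 2 were higher, 7 lower and 4 not called. Of the 20 with ACGTG, 4 were higher, 11 lower and 5 not called. Of all 65 factor genes 11 were higher and 31 lower, and of all genes tested 32.6% were higher and 31.9% lower. Genes with these letters were therefore found among those that rose and those that fell. TGATGNAA, the C/EBP and ATF response element, was found before 1 of the 51, EIF4E3, and before 3.89% of the RefSeq genes.

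eIF2 itself is a trimer whose alpha, beta and gamma subunits are encoded by EIF2S1, EIF2S2 and EIF2S3. EIF2S1, the subunit that stress kinases phosphorylate, was at 134 and 145 CPM in 786-O-Ctrl and at 117 and 116 CPM in 786-O-VHL. The groups did not overlap, and the log2 fold change was -0.26 ± 0.07 (FDR = 1.20e-03). The call was lost without the shallower 786-O-Ctrl library (log2 fold change -0.21, FDR = 0.094), after thinning to the shallowest library (-0.19, FDR = 0.10) and with library totals alone (-0.13, FDR = 0.089). EIF2S2 was at 291, 314, 323 and 311 CPM and did not pass the test (log2 fold change 0.06, 95% confidence interval -0.07 to 0.19, FDR = 0.39), but with library totals alone it passed as higher (FDR = 7.76e-03). EIF2S3 did not pass either (log2 fold change -0.12, 95% confidence interval -0.25 to 0.01, FDR = 0.11), though it passed as lower without 786-O-VHL replicate 1 (FDR = 1.62e-03), and its reads can be shared with EIF2S3B, a near-identical copy on chromosome 12 that reached at most 5.93 CPM. EIF2A, a separate factor that can bring the initiator tRNA without GTP, fell from 91.1 and 89.9 CPM to 76.0 and 70.3 CPM (log2 fold change -0.33, FDR = 1.83e-04). EIF2D, which acts in reinitiation and recycling, was at 56.8 to 61.0 CPM in all 4 libraries and was not called.

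eIF2B exchanges GDP for GTP on eIF2 and is blocked by the phosphorylated alpha subunit. Of its 5 subunit genes 1 rose, 2 fell and 2 did not pass the test (60% called, next to 64.5% of all genes). EIF2B2, for the beta subunit, was at 35.1 and 35.2 CPM in 786-O-Ctrl and at 44.1 and 47.1 CPM in 786-O-VHL (log2 fold change 0.40, FDR = 3.29e-04), and the call was lost without 786-O-VHL replicate 2 (FDR = 0.066). EIF2B1, for the alpha subunit, fell from 50.9 and 49.2 CPM to 36.6 and 35.4 CPM (log2 fold change -0.49, FDR = 2.23e-05). EIF2B5, which encodes the catalytic epsilon subunit, was at 67.3 and 70.3 CPM against 57.3 and 56.3 CPM (log2 fold change -0.28, FDR = 1.98e-03). The EIF2B5 call was lost without the shallower 786-O-Ctrl library (FDR = 0.063), without 786-O-VHL replicate 2 (FDR = 0.065), with library totals alone (FDR = 0.090) and after thinning to the shallowest library (FDR = 0.26). Subunits of 1 complex thus differed in direction at the mRNA level.

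The 4 kinases of the eIF2 alpha subunit respond to different stresses, and they split evenly between lower and not called. Their share called was 50%, next to 64.5% of all genes. EIF2AK3, which encodes PERK, the sensor of unfolded protein in the endoplasmic reticulum, was at 27.9 and 27.6 CPM in 786-O-Ctrl and at 21.7 and 17.3 CPM in 786-O-VHL. The libraries did not overlap, and the log2 fold change was -0.61 ± 0.12 (FDR = 9.29e-05). Without 786-O-VHL replicate 2 it was -0.36, and the call was lost there and after thinning to the shallowest library (-0.41, FDR = 0.067). EIF2AK4, which encodes GCN2, the sensor of amino acid shortage, was at 130 and 134 CPM against 95.0 and 103 CPM (log2 fold change -0.39 ± 0.07, FDR = 9.86e-06), and this call was kept under every alternative tried. EIF2AK1, for the heme-regulated kinase HRI, was at 256, 269, 263 and 266 CPM (log2 fold change 0.01, 95% confidence interval -0.12 to 0.14, FDR = 0.89). EIF2AK2, for PKR, which binds double-stranded RNA, was at 132, 133, 132 and 144 CPM (log2 fold change 0.08, 95% confidence interval -0.05 to 0.22, FDR = 0.27). With library totals alone both of these passed as higher, EIF2AK1 at a log2 fold change of 0.14 (FDR = 0.043) and EIF2AK2 at 0.22 (FDR = 4.54e-03).

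eIF3 is the largest initiation factor, a scaffold of many subunits that holds the small ribosomal subunit and the mRNA together. Of the 11 genes of stable subunits in the table, 8 fell, 0 rose and 3 did not pass the test. The share called was 72.7%, next to 64.5% of all genes tested. Among all genes tested, 31.9% were lower. The median log2 fold change of the 11 was -0.43. With library totals alone the same 8-to-0 split became 8 lower and 2 higher, and without 786-O-VHL replicate 1 it became 9 lower and 2 higher. EIF3E was at 328 and 343 CPM in 786-O-Ctrl and at 238 and 180 CPM in 786-O-VHL, which gave a log2 change of -0.73 ± 0.08 (FDR = 7.48e-09), and its 786-O-VHL libraries lay apart from each other. EIF3B, which encodes a core scaffold subunit, was at 516 and 508 CPM against 320 and 310 CPM, with a log2 fold change of -0.70 ± 0.06 (FDR = 6.64e-11). EIF3B fell by 38.6%.

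EIF3C, a further core subunit, was at 15.6 and 15.2 CPM against 11.5 and 9.44 CPM (log2 fold change -0.64, FDR = 7.65e-04). Its value is uncertain, since EIF3CL is a near-identical copy that can take its reads. EIF3CL was itself lower without 786-O-VHL replicate 1, with a log2 fold change of -0.80. The EIF3C call was lost without 786-O-VHL replicate 2 (-0.43) and after thinning to the shallowest library. EIF3F fell from 197 and 205 CPM to 150 and 136 CPM (log2 fold change -0.52), and EIF3H fell from 265 and 265 CPM to 204 and 173 CPM (log2 fold change -0.52). These 2 subunits and EIF3M, which fell by 0.38 on the log2 scale, belong to the same module of eIF3. EIF3L and EIF3I also fell, by 0.43 and 0.30 on the log2 scale.

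Against these, EIF3A, the largest subunit, was at 503 and 500 CPM in 786-O-Ctrl and at 534 and 545 CPM in 786-O-VHL and did not pass (log2 fold change 0.11, FDR = 0.12). EIF3G had a log2 fold change of 0.09 (FDR = 0.21). Without 786-O-VHL replicate 1 both passed as higher, EIF3A at FDR = 0.015 and EIF3G at FDR = 0.017. EIF3D, which can bind the cap, was at 301, 301, 270 and 279 CPM (log2 fold change -0.13, FDR = 0.068). It passed as lower in limma-voom and with RLE size factors. Over the fits that left out 1 library its change was -0.16 to -0.11. EIF3J, a loosely bound subunit that helps to dissociate ribosomes, rose from 90.4 and 94.2 CPM to 120 and 116 CPM (log2 fold change 0.35, FDR = 5.43e-05). EIF3J thus moved against the 8 stable subunits that fell.

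The eIF4 genes showed the widest range, from -1.17 to 0.66 on the log2 scale, with 7 of 12 lower, 3 higher and 2 not called. Their share called was 83.3%, next to 64.5% of all genes. EIF4G1, the main scaffold of the cap complex, on chromosome 3 at 184032283 to 184053146 of GRCh37, was at 1050 and 1004 CPM in 786-O-Ctrl and at 597 and 596 CPM in 786-O-VHL. Its log2 fold change was -0.78 ± 0.06 (95% confidence interval -0.91 to -0.66, FDR = 4.19e-12), and it fell by 41.9%. EIF4G3, which encodes the alternative scaffold eIF4GII, moved the other way, from 116 and 121 CPM to 191 and 170 CPM (log2 fold change 0.59 ± 0.07, FDR = 1.54e-08). EIF4G2, for a scaffold that lacks the eIF4E site and serves cap-independent initiation, was at 1179 and 1159 CPM against 1001 and 948 CPM. Its log2 fold change of -0.26 (FDR = 3.15e-04) just missed the threshold without the deeper 786-O-Ctrl library (FDR = 0.051) and with library totals alone (FDR = 0.051).

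Cap-binding proteins also moved in different directions. EIF4E, the canonical one, was at 66.2 and 71.1 CPM in 786-O-Ctrl and at 62.4 and 59.6 CPM in 786-O-VHL, with a log2 fold change of -0.18 ± 0.08 (FDR = 0.036). That call was lost in 6 alternatives, among them the fits without the deeper 786-O-Ctrl library (FDR = 0.092), without the shallower one (FDR = 0.35) and without 786-O-VHL replicate 2 (FDR = 0.35). EIF4E2, which encodes the homolog 4EHP, was at 94.7 and 94.8 CPM against 53.2 and 51.9 CPM. It fell by 44.8% (log2 fold change -0.86 ± 0.07, FDR = 4.30e-11), and the range over the fits that left out 1 library was -0.87 to -0.84. EIF4E3, for another cap-binding homolog, rose from 7.12 and 7.38 CPM to 10.9 and 10.7 CPM (log2 fold change 0.57, FDR = 6.60e-03). The EIF4E3 call was lost without the deeper 786-O-Ctrl library and without 786-O-VHL replicate 2. Over the fits that left out 1 library the change was 0.54 to 0.59. DESeq2 (FDR = 0.11) and thinning to the shallowest library did not call it either. EIF4ENIF1, on chromosome 22 at 31832963 to 31892094 of GRCh37, encodes 4E-T, which carries eIF4E into the nucleus and into processing bodies. Its level was 43.6 and 44.8 CPM in 786-O-Ctrl but 18.7 and 19.9 CPM in 786-O-VHL. This was the largest fall of the factor genes, at -1.17 ± 0.10 on the log2 scale (95% confidence interval -1.38 to -0.95, FDR = 1.21e-10). Within its span the annotation places 4 genes on the opposite strand, whose reads cannot be told apart without strand.

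The helicases of the eIF4A family differed likewise. EIF4A2 rose from 186 and 193 CPM to 302 and 299 CPM, a log2 fold change of 0.66 ± 0.06 (FDR = 2.79e-10). EIF4A3, the member that sits in the exon junction complex on spliced mRNA, fell from 140 and 138 CPM to 102 and 96.8 CPM (log2 fold change -0.50, FDR = 1.99e-07). EIF4A1 was listed at 4.94 and 5.25 CPM in 786-O-Ctrl and at 3.39 and 7.84 CPM in 786-O-VHL, and the groups overlapped (log2 fold change 0.43, FDR = 0.11). The EIF4A1 value is uncertain because its exons are shared with the read-through gene SENP3-EIF4A1. The fitted direction was set by 786-O-VHL replicate 2, without which it was -0.59 (FDR = 0.32), and without replicate 1 it passed as higher (FDR = 0.010). Of the partners that stimulate the helicase, EIF4H fell from 781 and 765 CPM to 577 and 584 CPM (log2 fold change -0.41, FDR = 7.44e-07), while EIF4B was at 291, 285, 308 and 275 CPM and did not pass (log2 fold change 0.00, 95% confidence interval -0.14 to 0.13).

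The 4E-binding proteins, which compete with eIF4G for eIF4E and release it when mTORC1 phosphorylates them, moved in opposite directions. EIF4EBP1 was at 114 and 115 CPM in 786-O-Ctrl and at 146 and 150 CPM in 786-O-VHL. The groups did not overlap, and the log2 fold change was 0.38 ± 0.06 (95% confidence interval 0.25 to 0.51, FDR = 9.01e-06), a rise of 30.0%. EIF4EBP2 was at 132 and 125 CPM against 98.7 and 74.7 CPM, with a log2 fold change of -0.66 ± 0.08 (95% confidence interval -0.83 to -0.49, FDR = 7.22e-08). EIF4EBP2 stood at a log2 fold change of -0.39 when 786-O-VHL replicate 2 was left out (FDR = 1.07e-03). Both calls were kept under every alternative tried.

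**Figure D2:**
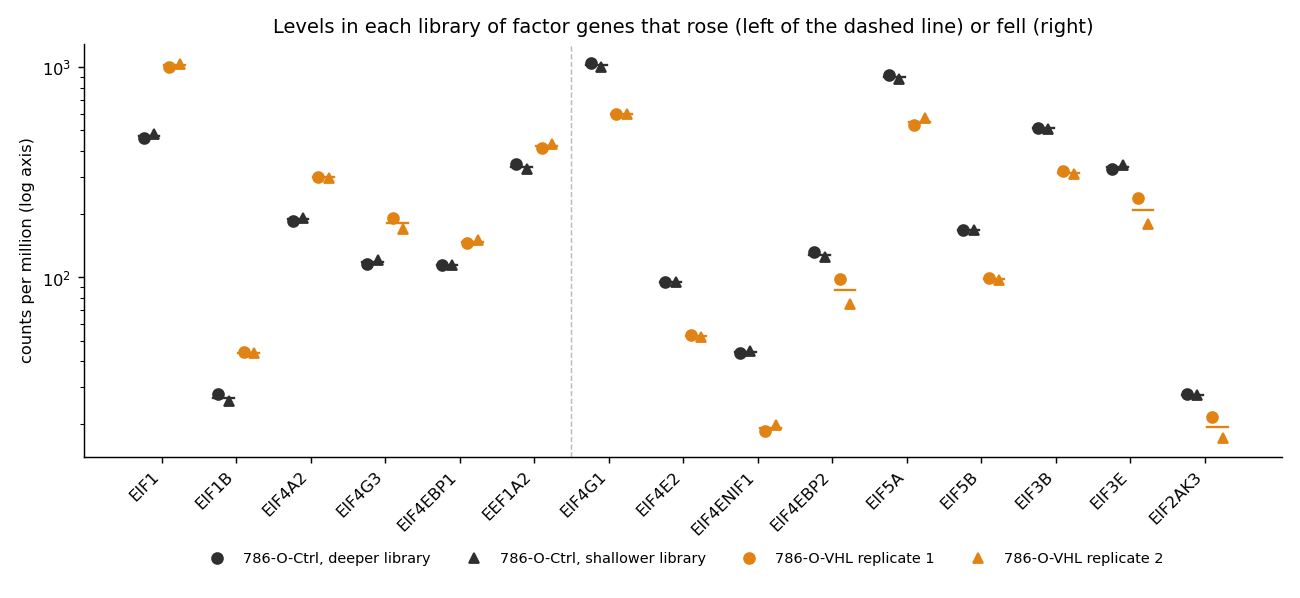
Level in CPM on a log axis for 15 translation factor genes in each of the 4 libraries; bars are group means of 2 libraries, and the dashed line separates 6 genes that rose from 9 that fell in 786-O-VHL. For each gene the 786-O-VHL libraries (orange) lie on one side of the 786-O-Ctrl libraries (dark), as for EIF1 at 1004 and 1040 against 461 and 481.

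eIF5 and eIF5B act at the joining of the ribosomal subunits, unlike eIF5A. EIF5, which makes eIF2 hydrolyse its GTP, rose from 256 and 273 CPM to 343 and 316 CPM (log2 fold change 0.31, FDR = 1.58e-04). EIF5B, the GTPase that joins the large subunit, fell from 168 and 167 CPM to 99.4 and 97.0 CPM, a log2 fold change of -0.78 ± 0.07 (FDR = 3.76e-11). The factors of these successive steps thus changed in opposite directions.

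EIF5A encodes the hypusine-carrying factor that helps ribosomes through proline stretches. Its level was 914 and 876 CPM in 786-O-Ctrl but 528 and 575 CPM in 786-O-VHL, which gave a log2 change of -0.69 ± 0.06 (FDR = 1.16e-10). EIF5A2, the isoform known from amplification in cancer, was at 51.4 and 55.8 CPM against 46.1 and 46.4 CPM (log2 fold change -0.21, FDR = 0.033). The EIF5A2 call was lost without the deeper 786-O-Ctrl library, without the shallower one and without 786-O-VHL replicate 2. Over the fits that left out 1 library the change was -0.27 to -0.16. The call was also lost with library totals alone (FDR = 0.46), in DESeq2 and after thinning to the shallowest library. EIF5AL1, a near-identical copy of EIF5A, stayed below 5 CPM and its groups overlapped (FDR = 0.056). It was called lower in limma-voom, with RLE size factors and with no filter on low counts. Over the fits that left out 1 library its change was -0.86 to -0.0071.

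EIF6, which keeps the large ribosomal subunit from joining too early, was at 196 and 195 CPM against 145 and 176 CPM, with a log2 fold change of -0.24 (FDR = 4.13e-03). The size depended on the 786-O-VHL library, since it was -0.15 without replicate 1 and -0.43 without replicate 2. With library totals alone it was -0.11 and was not called (FDR = 0.18).

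eEF1A delivers aminoacyl tRNAs to the ribosome, and its gene EEF1A1 was the most abundant of the factor genes, with 30.5% to 32.5% of their counts. EEF1A1 was at 7043 and 7015 CPM in 786-O-Ctrl and at 6343 and 5829 CPM in 786-O-VHL. The log2 fold change was -0.21 ± 0.06 (FDR = 3.05e-03). Leaving out a 786-O-Ctrl library ended the call but not the change, which was -0.21 without the deeper one (FDR = 0.17) and -0.22 without the shallower one (FDR = 0.15). With library totals alone it was -0.074 (FDR = 0.26). EEF1A2, the form typical of muscle and neurons, rose from 346 and 327 CPM to 413 and 430 CPM, a log2 fold change of 0.33 ± 0.06 (FDR = 3.86e-05). Per kilobase of the canonical transcript, the mean level in 786-O-Ctrl was 2001 CPM for EEF1A1 and 190 CPM for EEF1A2. EEF1E1, known as a scaffold of the aminoacyl tRNA synthetase complex, lay between 7.55 and 13.2 CPM and was not called.

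eEF2 moves the ribosome along the mRNA and is inactivated by the kinase eEF2K. EEF2 was at 3177 and 3038 CPM in 786-O-Ctrl and at 2903 and 2974 CPM in 786-O-VHL. It did not pass the test, and the log2 fold change of -0.08 had a 95% confidence interval of -0.20 to 0.04 (FDR = 0.23). Without 786-O-VHL replicate 2 it passed as lower, at -0.10 (FDR = 0.032). EEF2K was at 1.71 and 2.99 CPM against 2.03 and 0.95 CPM, and the groups overlapped. Its fitted log2 fold change of -0.996 (FDR = 0.048) rested on 786-O-VHL replicate 2, without which it was -0.16 and not called. The call was also lost without the shallower 786-O-Ctrl library (-0.55), in DESeq2 (-0.86, FDR = 0.32) and with library totals alone (-0.86, FDR = 0.085). The identifiers under which EEF2K and EEFSEC, the selenocysteine elongation factor, were counted are not those that the GRCh37 annotation pairs with these names, so both values are uncertain. EEFSEC lay between 1.42 and 3.12 CPM and was not called.

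Of the 6 genes for methyltransferases of the elongation factors, 1 rose, 1 fell and 4 did not pass. Their share called was 33.3%, next to 64.5% of all genes. EEF1AKNMT, also named METTL13, which methylates the start and a lysine of eEF1A, fell from 60.1 and 64.6 CPM to 32.9 and 38.9 CPM (log2 fold change -0.73 ± 0.09, FDR = 3.29e-08). EEF1AKMT4 was at 3.85 and 2.86 CPM against 6.44 and 6.23 CPM (log2 fold change 0.88, FDR = 2.99e-03). EEF1AKMT4 shares exons with the read-through gene EEF1AKMT4-ECE2 and had 19 counts in 786-O-VHL replicate 1. It lost the call without 786-O-VHL replicate 2 (log2 fold change 0.91) and without the shallower 786-O-Ctrl library (0.70). DESeq2 (FDR = 0.058) and thinning to the shallowest library (FDR = 0.065) did not call it either.

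Among the factor genes, 6 of the 9 listed as TOP mRNAs were in the table. EIF3E, EIF3F, EIF3H and EEF1A1 fell, EEF2 and EIF4B did not pass, and none rose. The share called was 66.7%, next to 64.5% of all genes tested, and the median log2 fold change of the 6 was -0.36. EIF3E and EIF3H, with log2 fold changes of -0.73 and -0.52, were not among the 11 genes with a pyrimidine run at an annotated start. Without either 786-O-Ctrl library, and with library totals alone, 3 in place of 4 fell, and without 786-O-VHL replicate 2 the number was 5.

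Where several genes encode forms of 1 factor, their ratio within a library does not depend on how libraries are scaled. The log2 ratio of the counts was set between 9 pairs, without correction for length, so that only its difference between the groups is read. EIF4G1 over EIF4G3 was 3.18 and 3.05 in 786-O-Ctrl but 1.64 and 1.81 in 786-O-VHL, a difference of -1.39 that was the largest of the 9. EIF4EBP1 over EIF4EBP2 was -0.20 and -0.12 against 0.56 and 1.01, a difference of 0.95. EIF4E over EIF4E2 rose from -0.52 and -0.42 to 0.23 and 0.20, a difference of 0.68. These changes of sign do not show a switch of the more abundant transcript. Per kilobase of the canonical transcript, EIF4EBP1 lay above EIF4EBP2 in both groups. The means were 138 against 17.1 CPM in 786-O-Ctrl and 179 against 11.6 CPM in 786-O-VHL. EIF4E2 likewise lay above EIF4E, at 98.0 against 28.3 CPM in 786-O-Ctrl and 54.4 against 25.1 CPM in 786-O-VHL. EEF1A1 over EEF1A2 fell from 4.35 and 4.42 to 3.94 and 3.76, and EIF5A over EIF5A2 from 4.15 and 3.97 to 3.52 and 3.63. The ratio of EIF1 over EIF1B moved from 4.05 and 4.22 to 4.51 and 4.58, and that of EIF4E over EIF4E3 from 3.22 and 3.27 to 2.52 and 2.47. For EIF2AK3 over EIF2AK4 the groups overlapped, with a difference of -0.10. For EIF4A1 over EIF4A2 the 786-O-VHL libraries disagreed, at -6.48 and -5.25 against -5.24 and -5.20 in 786-O-Ctrl. The groups were apart in 8 of the 9 pairs, next to 80% of all genes tested taken singly. The share over other gene pairs was not computed. EIF4A1 over EIF4A2 counted as apart by a narrow margin, with 10 counts of EIF4A1 in 786-O-VHL replicate 1. With 2 libraries per group an exact permutation p can reach 0.333 at best, so the ratios are a description.

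**Figure D3:**
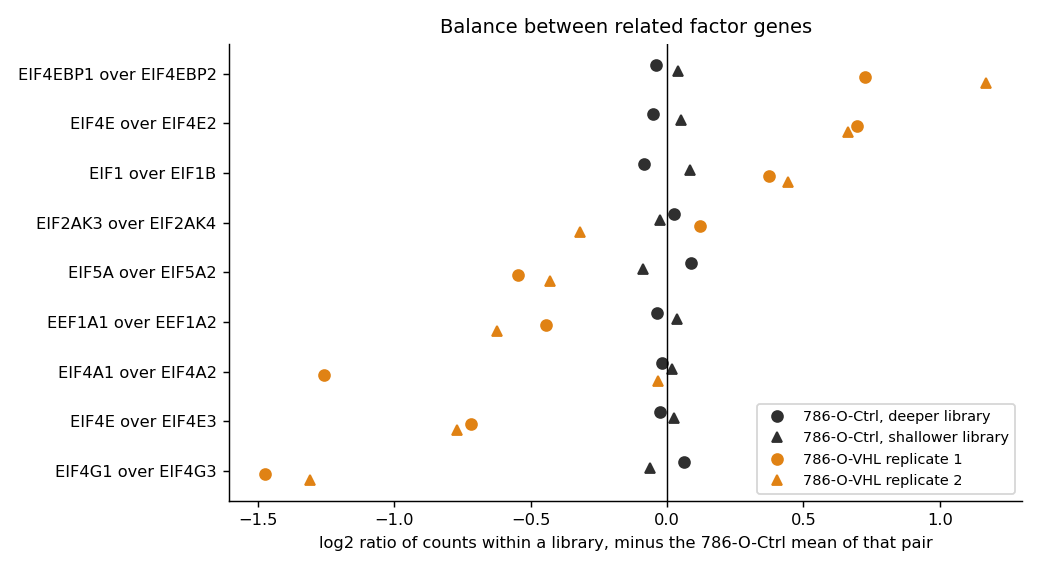
Log2 ratio of the counts of related factor genes within each library, less the 786-O-Ctrl mean of that pair (x axis), for 9 pairs (y axis) in 4 libraries. EIF4G1 over EIF4G3 lies lowest in 786-O-VHL, EIF4EBP1 over EIF4EBP2 highest, and EIF2AK3 over EIF2AK4 on both sides of 0.

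Genes of translation with other symbols were read from a list of 52, of which 48 were tested: 17 rose, 14 fell and 17 did not pass. The share called was 64.6%, next to 64.5% of all genes tested, so it was that of the whole table. The median log2 fold change of the 48 was -0.02. The largest rise was that of PPP1R15A, which encodes GADD34, the stress-induced subunit that directs a phosphatase to eIF2 alpha. PPP1R15A was at 88.5 and 101 CPM in 786-O-Ctrl and at 390 and 494 CPM in 786-O-VHL (log2 fold change 2.25 ± 0.08, FDR = 5.26e-19). MKNK2, for a kinase that phosphorylates eIF4E, was at 284 and 288 CPM against 1186 and 1154 CPM, a log2 fold change of 2.03 ± 0.06 (FDR = 6.35e-21). SEPSECS, the synthase of selenocysteinyl tRNA, rose from 6.22 and 6.64 CPM to 15.6 and 19.1 CPM (log2 fold change 1.50). These 3 rises exceeded that of EIF1, the largest among the EIF and EEF genes.

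On the lower side, the called genes with the largest change were PPP1CC and PPP1CA, which encode catalytic subunits of the phosphatase that GADD34 recruits, and PABPC4, for a poly(A)-binding protein. PPP1CC fell from 132 and 134 CPM to 69.9 and 67.8 CPM (log2 fold change -0.96), PABPC4 from 290 and 282 CPM to 180 and 171 CPM (log2 fold change -0.72), and PPP1CA from 232 and 236 CPM to 153 and 161 CPM (log2 fold change -0.56). PPP1CB, for the third catalytic subunit and named here after its values were seen, went the other way, from 223 and 237 CPM to 315 and 315 CPM (log2 fold change 0.45, FDR = 3.52e-07). The number that fell was 9 without the deeper 786-O-Ctrl library and 8 with library totals alone.

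**Figure D4:**
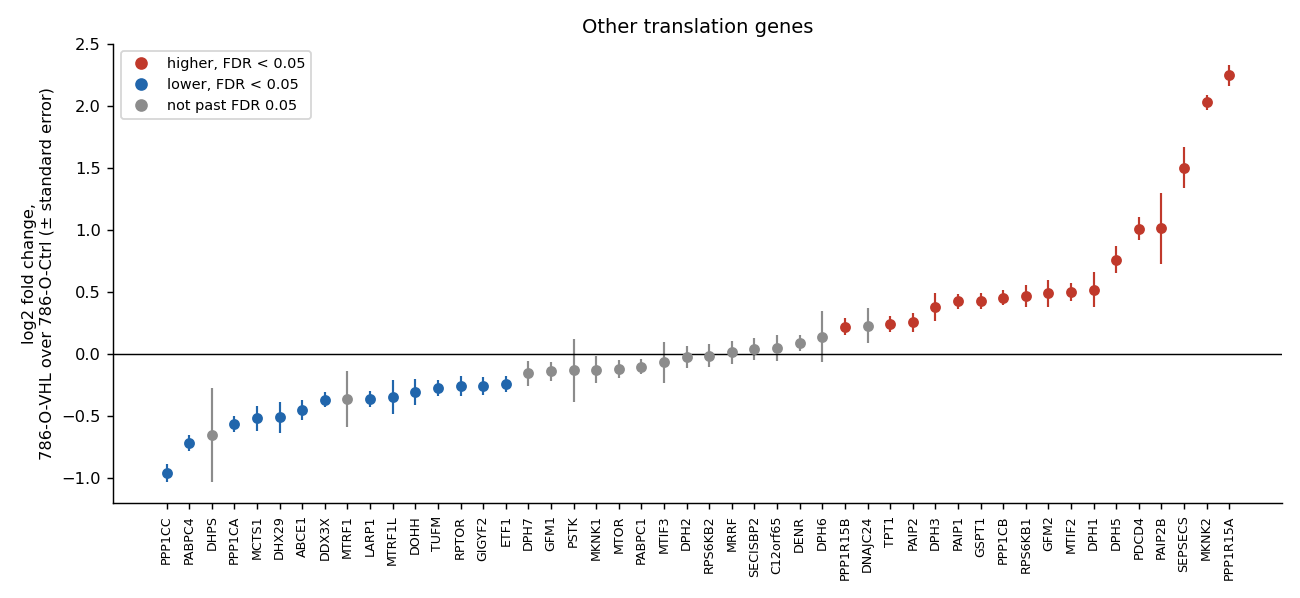
Log2 fold change of 786-O-VHL over 786-O-Ctrl (y axis) for 48 translation genes with other symbols (x axis), ordered by value; points are edgeR estimates, bars are 1 standard error, and color gives the call at FDR 0.05. PPP1R15A at 2.25 and MKNK2 at 2.03 stand at the high end and PPP1CC at -0.96 at the low end.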

How the data were processed

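mRNA was measured by RNA-seq in 4 libraries, 2 for 786-O-Ctrl and 2 for 786-O-VHL. The libraries were made with the Illumina TruSeq RNA kit, reads were aligned to hg19, and the submitters' processing notes name CASAVA and STAR. The authors deposited raw counts per gene for 12912 genes, with no normalization. For the counting tool, its annotation and its strand setting, the entry is: not given in the sources used here. Strand matters because 37 of the 63 members with coordinates overlap an annotated gene on the opposite strand. Samples were grouped by genotype label. Both 786-O-Ctrl columns carry the same replicate number and are named by depth.

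Genes were filtered with filterByExpr (minimum count 10), which kept 12335 and removed 577, scaled by TMM and tested with edgeR 4.0.16 in R 4.3.3 by the quasi-likelihood F test, with group as sole term and Benjamini-Hochberg adjustment over all genes tested. CPM uses the TMM factors, 0.9512 and 0.9577 for 786-O-Ctrl, 1.05 and 1.045 for 786-O-VHL. The ± value of a log2 fold change is its standard error. The biological coefficient of variation was 4.31%. Replicates differed by more than counting error, with a chi-square per degree of freedom of 2.25 for 786-O-Ctrl, 2.76 for 786-O-VHL. Tested on counts simulated for this comparison with 12149 genes, the procedure recovered 84 of 100 genes changed 2-fold and 98 of 100 changed 8-fold, with 4 false calls. In the data 64.5% of genes were called, and the median absolute log2 fold change of the factor genes was 0.35. The simulation held few changed genes and larger folds, so its rates do not apply to changes of that size and breadth.

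All members may be named, and of the list of other translation genes the 3 with the largest change at FDR below 0.05 in each direction. The members and lists were chosen with earlier results of these data known. Gene coordinates are from a GENCODE annotation on GRCh37, where 63 of 65 identifiers were found. Of the list of 52 other genes, 49 were in the table once. Alternatives were DESeq2 1.42.0, limma-voom (limma 3.58.1), RLE size factors, library totals alone, no filter, 10 counts in every library, thinning to the shallowest library, FDR below 0.01, and each library left out in turn.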

Additional observations from a re-analysis of the deposited data

How the results depend on the processing

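No paired analysis was possible because both 786-O-Ctrl columns carry the same replicate number. Of the 42 called factor genes, 27 kept their call in every alternative that tested them and 15 lost it in at least 1, and 0 of the 42 changed direction. Library totals alone gave 18 factor genes higher in place of 11, a median log2 fold change of -0.050 in place of -0.18, and 8 of the other translation genes lower in place of 14; thinning to the shallowest library gave 8 as well. Over the fits that left out 1 library, higher factor genes numbered 8 to 14, lower ones 24 to 34 and lower genes of the other list 9 to 14, and the median was -0.22 to -0.18. An FDR below 0.01 gave 11 higher and 27 lower. The cause of these moves was not tested.

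Of 22 factor genes that were not called (the Y-linked one left out), 17 had a fitted direction that turned. With library totals alone the log2 fold changes turned to 0.058 for EEF2KMT, 0.054 for EEF2, 0.096 for EIF2D, 0.013 for EIF2S3, 0.027 for EIF2B3, 0.016 for EIF2B4, 0.0043 for EIF3D and 0.13 for EIF4B. After thinning they were -0.0041 for EEF1E1, -0.019 for EIF2AK1, -0.20 for EIF4A1 and 0.061 for EIF4B. EIF2AK1 was at -0.011 in DESeq2, -0.0049 with RLE size factors and -0.00087 without a filter, EEF1AKMT2 at -0.027 in limma-voom and EIF4B at 0.0021 with 10 counts in every library. Over the fits that left out 1 library the ranges were -0.068 to 0.54 for EEF1AKMT1, -0.15 to 0.63 for EEF1AKMT2, -0.49 to 0.025 for EEF2KMT, -0.032 to 0.62 for EEF1E1, -0.32 to 0.80 for EEFSEC, -0.065 to 0.035 for EIF2D, -0.031 to 0.040 for EIF2AK1, -0.0076 to 0.12 for EIF2AK2, -0.80 to 0.65 for EIF3CL, -0.010 to 0.14 for EIF3G, -0.59 to 0.63 for EIF4A1 and -0.072 to 0.090 for EIF4B. The depth of 786-O-VHL replicate 1 limits genes of few counts, and 14 factor genes lay below 20 CPM.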
